A study of Mus musculus with 7 samples.

Results

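Toll-like receptors (TLRs) are the innate sensors of microbial lipids, proteins and nucleic acids, and Myd88 is the adaptor protein through which nearly all of them signal. The 10 genes described here are Tlr1 to Tlr9 and Myd88, taken by gene symbol from the 23930 genes of a targeted RNA sequencing panel that reads 1 amplicon per gene. They were measured in 7 libraries from sorted progenitors of mouse bone marrow, all from mice given zinc in their drinking water for 15 days. The pMT-10 strain carries an Il10 transgene under a metallothionein promoter that zinc switches on in many cell types, and BL/6 (C57BL/6) mice, which received the same zinc, have no such transgene. From pMT-10 mice there were 1 library of haematopoietic stem cells (HSC), 2 of LSK CD150+CD48+ cells (no lineage markers, but SCA-1, c-KIT, CD150 and CD48 at the surface), and 2 of common myeloid progenitors (CMPs), and from BL/6 mice there were 2 libraries of CMPs. The labels do not say how many animals stand behind a library, so the p-values rest on a spread between libraries that may be technical.

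TLRs at the cell surface bind bacterial products: Tlr4 binds lipopolysaccharide, Tlr2 binds lipopeptides together with Tlr1 or Tlr6, and Tlr5 binds flagellin. Tlr3, Tlr7, Tlr8 and Tlr9 sit in endosomes and bind RNA or DNA. Ligand binding pairs the TIR domains of receptor and adaptor; Myd88 then assembles IRAK kinases and Traf6, which activate NF-kB and MAP kinases, while Tlr3, and Tlr4 from endosomes, use the adaptor Ticam1 (TRIF). Haematopoietic stem and progenitor cells of mice are known to carry some TLRs and to be driven towards myeloid output by their ligands. Myd88 also serves the receptors for IL-1, IL-18 and IL-33.

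Libraries held 7372430 to 13854314 counts. Values are CPM, the read count as a rate of the library total after TMM scaling, and a floor of 3 counts corresponds to 0.216 to 0.397 CPM. Chip 1 of the sequencer carried the LSK CD150+CD48+ cells and the pMT-10 CMPs, and chip 2 carried the HSC and the BL/6 CMPs. The numbers 1 and 2 are given here to chips whose deposited names carry different dates. Chip and date therefore cannot be told apart. Of the 7 stem cell markers, Procr was at 38.5 CPM in the HSC library and at 0 to 2.20 CPM in the other 6. Mecom was at 47.6 CPM against 2.31 to 4.09 CPM. Slamf1, Hlf and Fgd5 were also highest in HSC. Ly6a (SCA-1) was at 331 CPM in HSC, close to one LSK CD150+CD48+ library (325 and 249 CPM in the pair). Kit went the other way against BL/6 CMPs, at 157 CPM in HSC and 303 and 274 CPM there. The defining macrophage marker Adgre1 was at 0 in the HSC, LSK CD150+CD48+ and pMT-10 CMP libraries and at 0 and 0.0808 CPM in the BL/6 CMP libraries. Other monocyte and macrophage markers went the other way. Lyz2 and Cd68 had reads in every library, with 319 and 16.5 CPM in HSC, and the whole list is given below.

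The Myd88 gene lies on chromosome 9 of mm10 (119335934 to 119341411, minus strand). The 250 bases before its RefSeq start lie inside this annotated gene, downstream of its GENCODE start at 119341411. They are shown because Myd88 was the one of the 4 tested members called between the CMPs of the strains. This stretch also holds a match to the interferon-stimulated response element. Capitals mark that match (GAAA, 2 bases of any kind, GAAA; the site of IRF factors); both strands were searched. The window is chr9:119340019-119340268 of GRCm38.p6, read on the minus strand, 5′ to 3′.
Myd88: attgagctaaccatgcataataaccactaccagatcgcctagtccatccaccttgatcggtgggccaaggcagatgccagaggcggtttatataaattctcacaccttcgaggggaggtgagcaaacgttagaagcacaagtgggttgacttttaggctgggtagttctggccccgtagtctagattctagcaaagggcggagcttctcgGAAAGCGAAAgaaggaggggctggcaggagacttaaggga
The match runs from position -40 to -31, counted back from the RefSeq start. Of 32851 such windows, 2.98% held the motif. Among the members, a window of Tlr6 also held this motif (2 overlapping matches on the other strand). The window of Tlr2 (chromosome 3) held a match to the kappa-B motif (GGG, 3 bases of any kind, TTCC; the site of NF-kB), in capitals here with 10 bases on each side, chr3:83841762-83841791 of GRCm38.p6 on the minus strand.
Tlr2: taggacacctGGGGAATTCCcacacggagc
Windows of Tlr3 and Tlr6 held this motif too, and it was in 4.65% of all windows. Windows were held for 8 of the 10 members, all but Tlr4 and Tlr7. A match describes these letters and does not show that a factor binds.

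Myd88 was by far the best covered member, with 601 to 1064 counts per library. It stood at 141 CPM in the HSC library, 70.2 and 60.8 CPM in LSK CD150+CD48+ cells, 93.0 and 95.3 CPM in pMT-10 CMPs, and 60.5 and 59.1 CPM in BL/6 CMPs. Every HSC, LSK CD150+CD48+ and pMT-10 CMP value lay above both BL/6 CMP values, but the 95% Poisson intervals of the lower LSK CD150+CD48+ library (56.7 to 65.0 CPM) and the higher BL/6 one (56.0 to 65.4 CPM) overlapped. These intervals cover counting error only. In order of level, LSK CD150+CD48+ cells (mean 65.5 ± 6.68 CPM, SD, n = 2) and BL/6 CMPs (59.8 ± 1.01, n = 2) were therefore not separated. The counting intervals of pMT-10 CMPs (94.2 ± 1.67, n = 2) and of the HSC library overlapped those of no other group. In the edgeR test described below, pMT-10 CMPs did not pass against the HSC library or against LSK CD150+CD48+ cells.

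**Figure D1:**
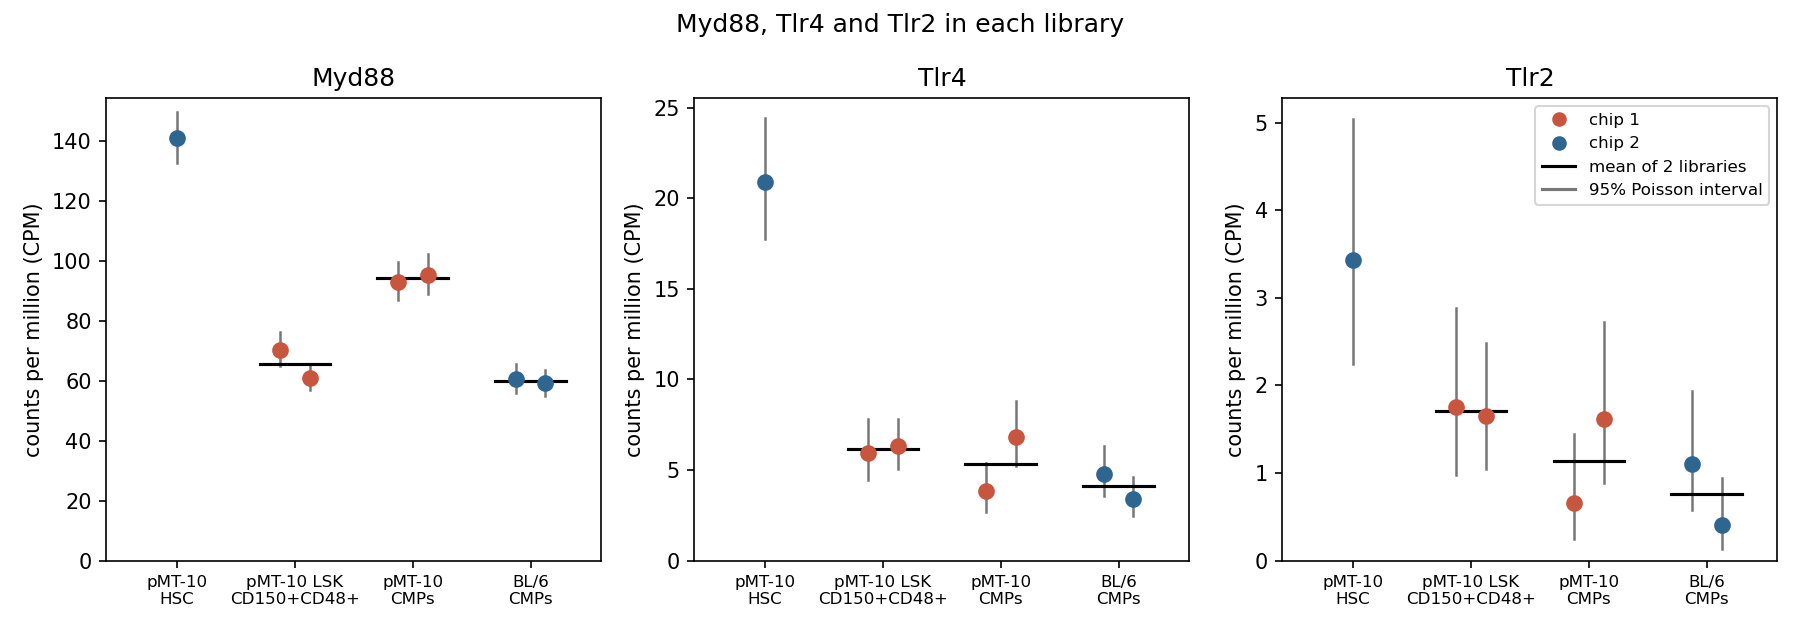
Myd88, Tlr4 and Tlr2 in each library, in CPM (linear axis); points are libraries coloured by sequencing chip, grey lines are 95% Poisson intervals and black bars are means of 2 libraries. The HSC library is the highest in all 3 panels, and the pMT-10 CMP pair (93.0 and 95.3 CPM) lies above the BL/6 CMP pair (60.5 and 59.1 CPM) for Myd88.

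Tlr4 (chromosome 4, 66827584 to 66930284, plus strand) was the receptor with the most reads. It had 158 counts (20.9 CPM) in the HSC library, 51 and 88 counts (5.96 and 6.33 CPM) in LSK CD150+CD48+ cells, 35 and 59 counts (3.86 and 6.84 CPM) in pMT-10 CMPs, and 52 and 42 counts (4.80 and 3.39 CPM) in BL/6 CMPs. The HSC value was above all other libraries, with a 95% Poisson interval of 17.8 to 24.4 CPM, the LSK CD150+CD48+ pair lay above the BL/6 CMP pair, and the pMT-10 CMP pair overlapped both. Tlr2 (chromosome 3, 83836272 to 83841767) had 26 counts (3.44 CPM) in the HSC library, 15 and 23 (1.75 and 1.65 CPM) in LSK CD150+CD48+ cells, 6 and 14 (0.662 and 1.62 CPM) in pMT-10 CMPs, and 12 and 5 (1.11 and 0.404 CPM) in BL/6 CMPs. It followed the same order of group means as Tlr4, but the intervals of single libraries were wide (2.25 to 5.04 CPM in the HSC library). Amplicons amplify unequally, so levels are compared between libraries and not between genes.

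Tlr5 (chromosome 1) had 10 counts in the HSC library, 1 and 0 counts in LSK CD150+CD48+ cells, and none in any of the 4 CMP libraries of either strain. With the CMPs set at the floor of 3 counts per library, it was 3.81-fold higher in HSC than in pMT-10 CMPs and 4.78-fold higher than in BL/6 CMPs. These ratios leave out the counting error of the 10 HSC reads (1.32 CPM, 95% Poisson interval 0.634 to 2.43 CPM). Against the single count in LSK CD150+CD48+ cells the ratio was 29.7, with a 95% counting interval of 4.23 to 1290. Tlr6, the lipopeptide partner of Tlr2, gave 5 counts in the HSC library, 1 and 4 in the LSK CD150+CD48+ pair, 5 and 0 in pMT-10 CMPs, and 1 and 3 in BL/6 CMPs, too few to order the groups. Tlr1, the other partner, had 0 counts in all 7 libraries. Tlr1 and Tlr6 lie 18467 bases apart on chromosome 5, and their annotated transcripts share an identical run of 229 bases; the sources used here do not place the amplicons, so reads of the pair may not be fully separable.

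The endosomal receptors showed another pattern. Tlr7 (X chromosome), a sensor of single-stranded RNA, had 0 counts in the HSC library, 0 and 1 in the LSK CD150+CD48+ pair, 8 and 4 in pMT-10 CMPs, and 18 and 7 in BL/6 CMPs. Tlr9 (chromosome 9), which binds unmethylated CpG DNA, had 3 counts in HSC, 0 and 0 in the LSK CD150+CD48+ pair, 3 and 1 in pMT-10 CMPs, and 5 and 13 in BL/6 CMPs. Both were best seen in BL/6 CMPs. The pMT-10 and BL/6 CMP libraries overlapped for Tlr7. For Tlr9 the pMT-10 pair lay below the BL/6 pair, as for 33.7% of all tested genes. Summed over libraries, the ratio of pMT-10 to BL/6 CMPs was 0.63 for Tlr7 (95% counting interval 0.288 to 1.30) and 0.292 for Tlr9 (0.0718 to 0.885). These intervals cover counting error only. In an edgeR fit without the filter on low counts, Tlr9 did not pass in this comparison (adjusted p = 0.479). With HSC set at the floor, Tlr7 was 1.71-fold lower there than in pMT-10 CMPs and 2.71-fold lower than in BL/6 CMPs. These ratios leave out the counting error of the CMP reads. In the edgeR test described below, its log2 fold changes in HSC were -5.80 ± 2.71 SE and -6.50 ± 2.52 SE against these groups. Neither passed. Tlr3, the sensor of double-stranded RNA (chromosome 8), had reads in 1 library only, 3 counts in BL/6 CMP replicate 1. Tlr8, the neighbour of Tlr7 on the X chromosome, had 1 count in that same library and 0 elsewhere, so neither was detectable at this depth in the other libraries.

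**Figure D2:**
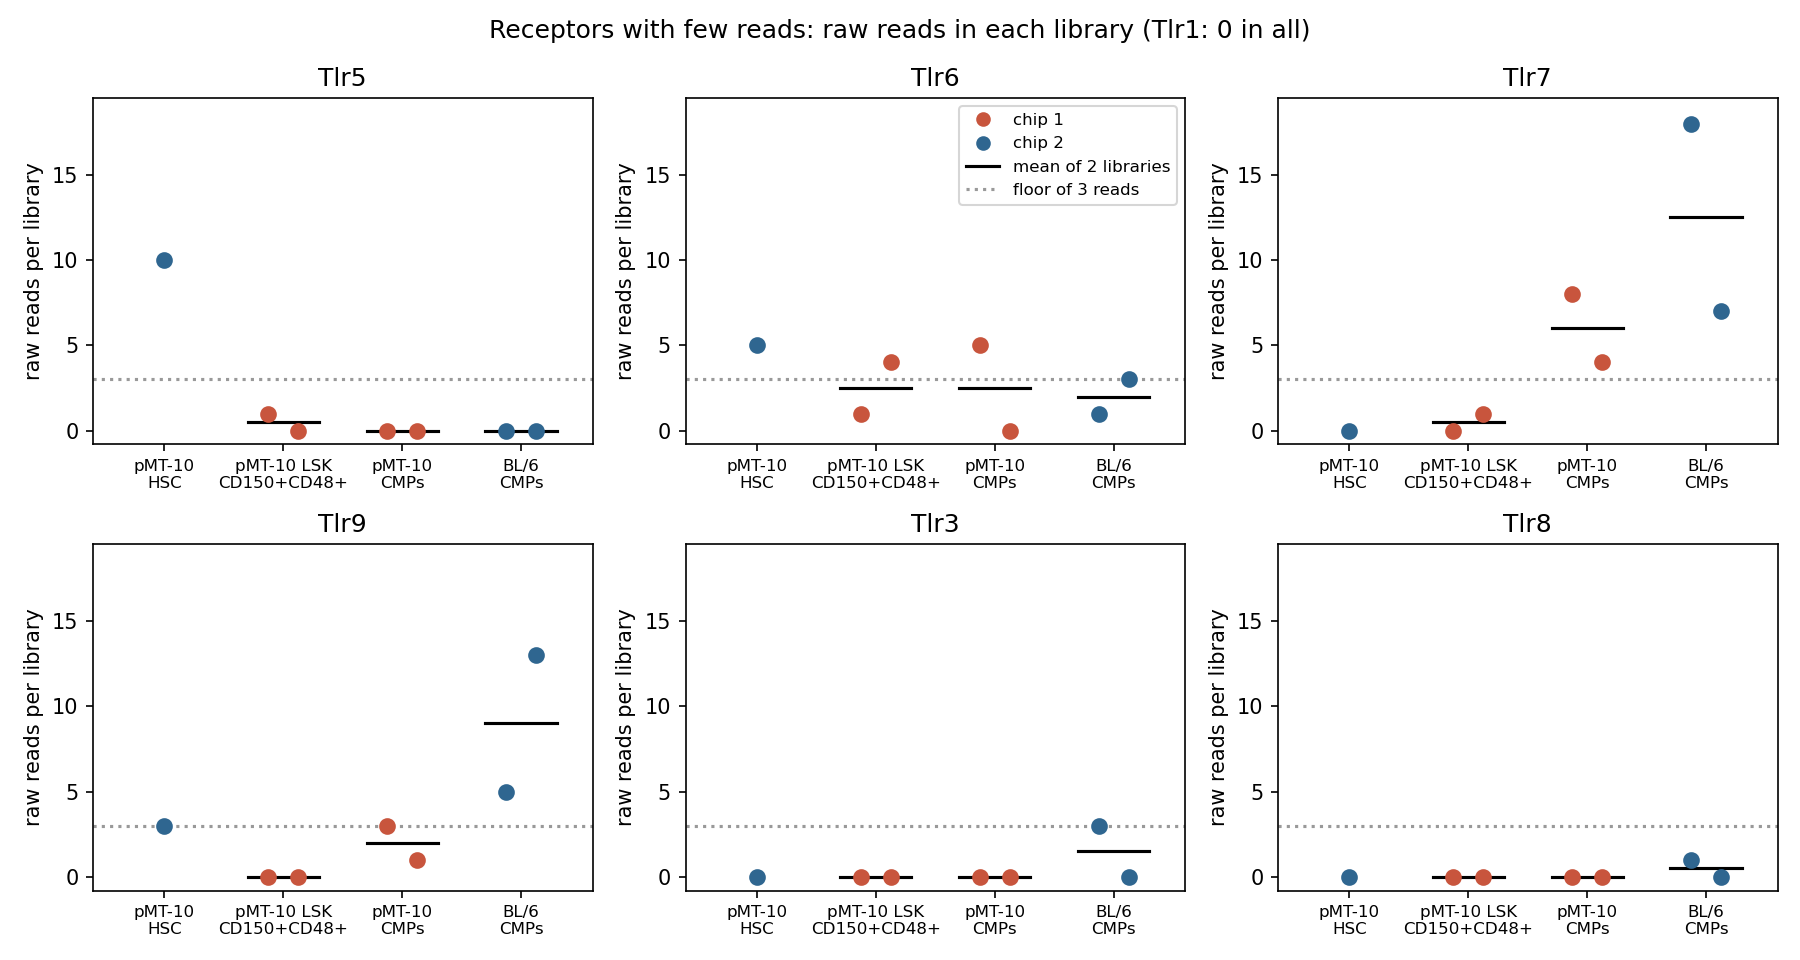
Raw reads per library of the 6 receptors with few reads (linear axis); points are libraries coloured by chip, black bars are means of 2 libraries, and the dotted line is the floor of 3 reads. Tlr5 rises above the floor only in the HSC library (10 reads), while Tlr7 does so only in CMPs of either strain, with 8 and 4 reads in pMT-10 and 18 and 7 in BL/6.

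The 9 receptors were grouped by place, a textbook division applied after their values were seen. The endosomal share was higher in each CMP library than in the HSC and LSK CD150+CD48+ libraries, whose intervals overlapped. The interval of pMT-10 CMP replicate 2 overlapped theirs too, so that library was not set apart. The 5 surface receptors summed to 26.3 CPM in the HSC library, 7.94 and 8.27 CPM in LSK CD150+CD48+ cells, 5.07 and 8.46 CPM in pMT-10 CMPs, and 6.00 and 4.04 CPM in BL/6 CMPs. The 4 endosomal receptors took 3 of 202 TLR reads in HSC (1.49%, exact Clopper-Pearson 95% interval 0.307 to 4.28%). They took 0 of 68 and 1 of 116 reads in LSK CD150+CD48+ cells, where the exact upper limit for 0 of 68 is 5.28% (4.41% by the floor of 3 reads) and 1 of 116 is 0.862% (0.0218 to 4.71%). In pMT-10 CMPs the share was 19.3% (11 of 57, 10.05 to 31.9%) and 6.41% (5 of 78, 2.11 to 14.3%), and in BL/6 CMPs 29.3% (27 of 92, 20.3 to 39.8%) and 28.6% (20 of 70, 18.4 to 40.6%). By point values, all 4 CMP libraries were above all 3 stem cell and LSK libraries. Both pMT-10 CMP libraries were below both BL/6 ones, but the interval of pMT-10 CMP replicate 1 overlapped both of theirs. Because the division was applied with the values seen, no p is given. The endosomal sum itself was 0.397 CPM in HSC, 0 and 0.0719 CPM in LSK CD150+CD48+ cells, 1.21 and 0.579 CPM in pMT-10 CMPs, and 2.49 and 1.62 CPM in BL/6 CMPs, so the low share in HSC goes with a high surface sum as well as few endosomal reads.

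**Figure D3:**
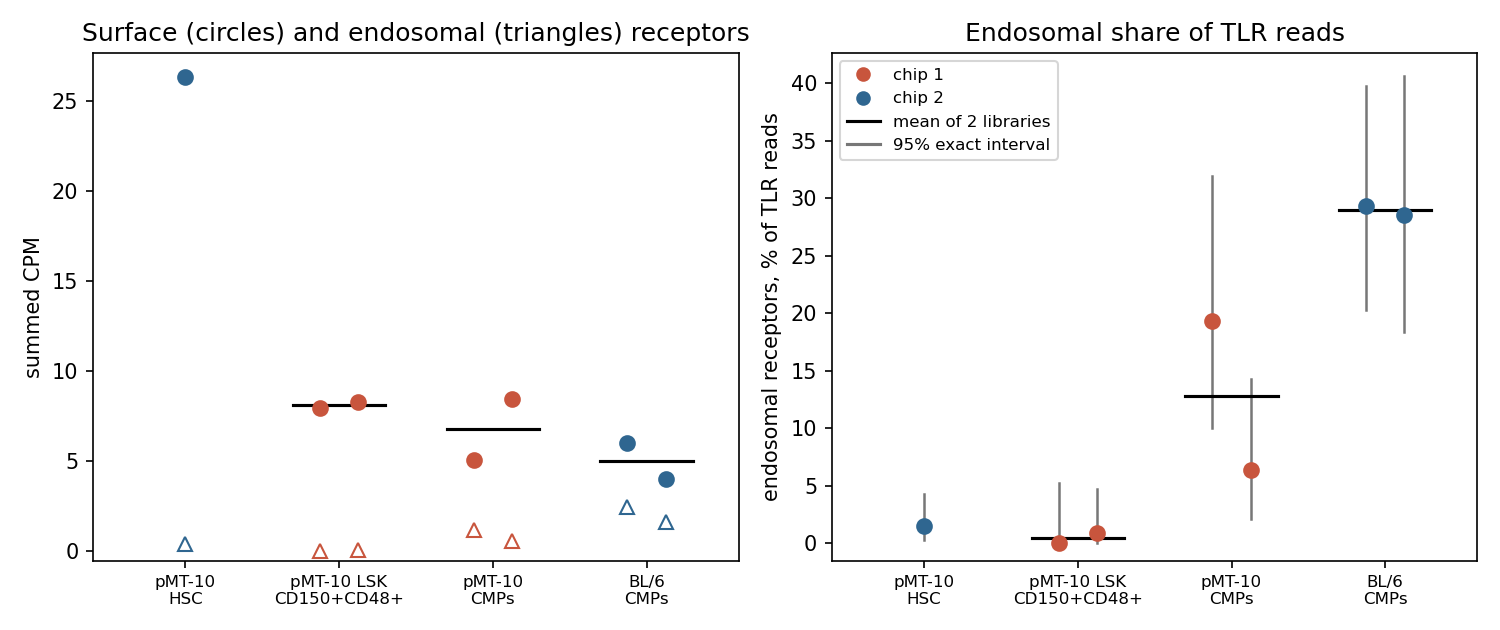
Left, summed CPM of the 5 surface receptors (filled circles) and the 4 endosomal receptors (open triangles) in each library; right, the endosomal receptors' share of all TLR reads in percent, with exact 95% intervals (grey) and means of 2 libraries (black bars). The surface sum is highest in the HSC library (26.3 CPM), and the endosomal share is highest in the BL/6 CMP pair (29.3 and 28.6%).

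Comparisons were then tested in a single edgeR fit of all libraries. The filter on low counts left 4 of the 10 members to test (Myd88, Tlr4, Tlr2 and Tlr7). The other 6 were not tested in this fit and are described by their counts. In bulk samples, fewer cells that express a gene and less of its RNA per cell cannot be told apart.

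CMPs are the population held for both strains, so they give the comparison of IL-10 overexpression with its control. Myd88 rose 1.57-fold in pMT-10 CMPs (log2 fold change 0.65 ± 0.18 SE, adjusted p = 0.0256), and was the single called member of the 4 tested. In the same comparison 28.0% of all 11429 tested genes were called, 14.3% as higher and 13.7% as lower, and both pMT-10 libraries lay above both BL/6 ones for 33.2% and below for 33.7%. Tlr4 (5.35 ± 2.10 against 4.10 ± 0.995 CPM, SD, n = 2 each; log2 fold change 0.39 ± 0.38 SE, adjusted p = 0.469) did not pass the test, and the sign turned without pMT-10 CMP replicate 2 (-0.077). Tlr2 (0.60 ± 0.75, adjusted p = 0.571) also turned without that library (-0.16), and Tlr7 was at -0.70 ± 0.89 (adjusted p = 0.585). Strain coincides here with chip and its date, and these cannot be told apart. The Myd88 call was lost without BL/6 CMP replicate 1 (adjusted p = 0.2) or replicate 2 (0.194), where its log2 fold change was 0.67 and 0.65; its adjusted p ran from 0.00539 to 0.2 over 13 alternatives.

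Within chip 1, LSK CD150+CD48+ cells were set against pMT-10 CMPs. There edgeR called 0 of the 4 tested members (of all genes it called 11.8%, 5.92% as higher and 5.92% as lower), as did DESeq2, and 2 had an unadjusted p under 0.05. Myd88 had a log2 fold change of -0.52 ± 0.18 (adjusted p = 0.0848), and both LSK CD150+CD48+ libraries lay below both CMP ones, as for 27.9% of all genes (27.8% lay above). Without pMT-10 CMP replicate 1 or replicate 2, which leaves 1 library in that group, the log2 fold change of Myd88 was -0.54 and -0.51. Tlr7 was at -3.62 ± 1.38 (adjusted p = 0.116), resting on 1 against 12 reads. Tlr2 (0.58 ± 0.70, adjusted p = 0.612) and Tlr4 (0.20 ± 0.37, adjusted p = 0.748) were within their errors, and without pMT-10 CMP replicate 1 the sign of Tlr4 turned (-0.15).

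The HSC library was set against each other group; these 3 comparisons share that library, whose spread is assumed to be like that of the other groups. Tlr4 rose in HSC in all of them, by 1.76 ± 0.42 on the log2 scale against LSK CD150+CD48+ cells (adjusted p = 0.0211), by 1.97 ± 0.42 against pMT-10 CMPs (0.0112) and by 2.35 ± 0.42 against BL/6 CMPs (0.00502), a 3.39-, 3.91- and 5.11-fold difference. Myd88 rose against LSK CD150+CD48+ cells by 1.10 ± 0.21 (adjusted p = 0.00951) and against BL/6 CMPs by 1.23 ± 0.21 (0.00402), and was 0.58 ± 0.21 against pMT-10 CMPs (0.0748), which did not pass. Tlr2 passed in none (1.01 ± 0.78, 1.59 ± 0.81 and 2.19 ± 0.81 against the same groups in the same order, lowest adjusted p = 0.087). The members called were thus 2, 1 and 2 of 4, where 18.8%, 25.5% and 20.3% of all genes were called. Of all genes 10.6%, 13.8% and 11.8% were called as higher in HSC and 8.14%, 11.7% and 8.50% as lower. The HSC library lay above both other libraries for 45.4%, 41.1% and 45.0% of genes and below both for 41.6%, 38.1% and 45.7%. HSC and BL/6 CMPs share chip 2, so the values against BL/6 CMPs are within a chip, though strain and population both differ; the others lie across chips.

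Some of these calls rest on single libraries. Against LSK CD150+CD48+ cells both were lost without LSK CD150+CD48+ replicate 1 (adjusted p = 0.138 for Tlr4, 0.0631 for Myd88) or replicate 2 (0.116 and 0.0728). The calls over all genes were then 266 and 352, against 2145 with both libraries, while the log2 fold changes were 1.72 and 1.81 for Tlr4. Against BL/6 CMPs Myd88 was lost without BL/6 CMP replicate 1 (0.0527) or replicate 2 (0.0641), and Tlr4 without replicate 2 (0.0639). Tlr4 against pMT-10 CMPs was at adjusted p = 0.0516 when just those groups were fitted. In each of these the sign held, with log2 fold changes of 1.61 to 2.57 for Tlr4 over the 13 alternatives, and of at most 1.21 and 1.29 for Myd88 against LSK CD150+CD48+ cells and BL/6 CMPs.

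**Figure D4:**
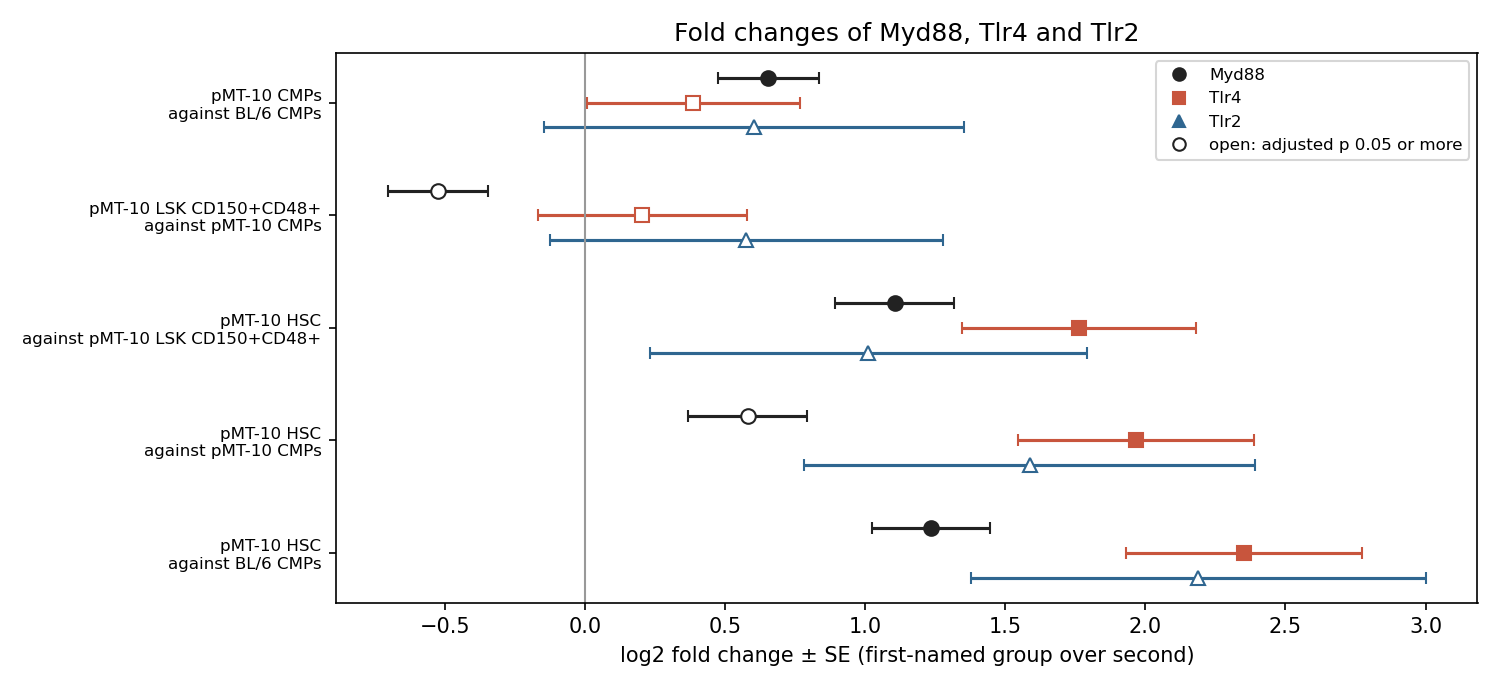
Log2 fold changes (first-named group over the second) of Myd88, Tlr4 and Tlr2 with standard errors in the 5 comparisons; filled symbols have an adjusted p under 0.05. Tlr4 and Myd88 lie to the right in the HSC comparisons, up to 2.35 and 1.23 against BL/6 CMPs, and Myd88 lies to the left (-0.52, open) between LSK CD150+CD48+ cells and pMT-10 CMPs.

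Markers of cells that carry many TLRs were read beside these results. The 11 measured monocyte and macrophage markers summed to 338 CPM in the HSC library, 86.7 to 113 CPM in LSK CD150+CD48+ cells, 141 to 156 CPM in pMT-10 CMPs and 82.8 to 93.3 CPM in BL/6 CMPs, which is the order of Myd88 save for the lowest pair. Lysozyme, Lyz2, made up most of each sum, with 319 CPM in HSC, 67.9 and 89.5 in the LSK CD150+CD48+ pair, 124 and 126 in pMT-10 CMPs, and 62.5 and 73.8 in BL/6 CMPs. Of the 6 markers tested, 1 rose and 3 fell in HSC against either group of CMPs. Of all genes 13.8% rose and 11.7% fell against pMT-10 CMPs, and 11.8% and 8.50% against BL/6 CMPs. In the HSC library 4 of the 11 were at 0 counts: Csf1r, the M-CSF receptor, Adgre1, Cx3cr1 and Vcam1. The 11 neutrophil markers summed to 25.8 CPM in HSC, 2.22 to 13.3 in LSK CD150+CD48+ cells, 24.7 to 26.6 in pMT-10 CMPs and 8.48 to 24.6 in BL/6 CMPs. The 7 measured B cell markers summed to 52.5 CPM in HSC, 16.4 to 17.2 in LSK CD150+CD48+ cells, 11.2 to 20.3 in pMT-10 CMPs and 15.6 to 17.4 in BL/6 CMPs; nearly all of it was Cd79b (52.3 CPM in HSC), while Ms4a1, Ebf1, Igll1 and Cd22 were at 0 in HSC. The 10 dendritic cell markers were at 2.91 CPM in HSC, 10.2 to 14.4 in LSK CD150+CD48+ cells, 40.5 to 47.0 in pMT-10 CMPs and 49.0 to 58.9 in BL/6 CMPs, the direction of Tlr7, and rested on Zbtb46 and Flt3 with Xcr1, Siglech, Ccr9, Cd209a and Batf3 at 0 in every library. T and NK cell markers reached 4.89 CPM in HSC, at most 0.818 in LSK CD150+CD48+ cells, 0.579 in pMT-10 CMPs and 1.62 in BL/6 CMPs. In HSC all of it was Klrb1c (37 counts), and the other 7 measured markers, such as Cd3e and Ncr1, were at 0. The part of these transcripts in the TLR results was not tested.

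The wider pathway was followed in 7 lists of 102 genes (77 tested). In pMT-10 against BL/6 CMPs 14 were higher and 10 lower, 31.2% against 28.0% of all genes, with a median log2 fold change of 0.10 against 0.01 over all genes. Between LSK CD150+CD48+ cells and pMT-10 CMPs 6 were higher and 7 lower (16.9%, against 11.8% of all genes). In HSC 17 were higher and 5 lower against LSK CD150+CD48+ cells (28.6%), 13 and 4 against pMT-10 CMPs (22.1%), and 16 and 5 against BL/6 CMPs (27.3%). Of all genes 18.8%, 25.5% and 20.3% were called in these HSC comparisons, in the same order. The list shares stand near those of all genes in the CMP comparison and in that of HSC with pMT-10 CMPs. The 77 include 12 target genes of TLR signals, and genes such as Cd86 among them passed the filter through the library where they are high. The lists were also chosen with earlier results of these data known. These shares therefore support nothing about the pathway in any comparison.

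Accessory proteins fold, carry or present ligand to TLRs. Of 13 tested, 3 rose and 0 fell in HSC against BL/6 CMPs (of all genes 11.8% rose and 8.50% fell). They were Unc93b1, which carries the endosomal receptors out of the endoplasmic reticulum (1.55 ± 0.26, adjusted p = 0.00368), the TLR chaperone Hsp90b1 (adjusted p = 0.0202) and Cd180, a TLR-like surface protein (0.98 ± 0.29). Unc93b1 was at 150 CPM in HSC, 56.9 and 39.2 in the LSK CD150+CD48+ pair, 52.4 and 47.5 in pMT-10 CMPs, and 54.3 and 48.7 in BL/6 CMPs, so HSC, with few endosomal receptor reads, had the most Unc93b1. In pMT-10 against BL/6 CMPs the chaperone Cnpy4 (0.88 ± 0.23) and the lipopolysaccharide-binding protein gene Lbp (1.17 ± 0.36) rose, and Cd36 (-2.19 ± 0.72) and the endosomal transporter Slc15a4 (-0.70 ± 0.23) fell. Lbp fell in LSK CD150+CD48+ cells against pMT-10 CMPs (2.64 against 23.4 CPM, -3.10 ± 0.41). Of the co-receptors of Tlr4, Ly96 (MD-2) was at 1.59 CPM in HSC, 1.99 and 2.23 in the LSK CD150+CD48+ pair, 1.21 and 1.39 in pMT-10 CMPs and 3.05 and 3.07 in BL/6 CMPs, and passed in no comparison. Cd14 had 6 counts in HSC, 1 and 1 in the LSK CD150+CD48+ pair, 5 and 5 in pMT-10 CMPs, and 1 and 0 in BL/6 CMPs, too few to test.

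Among 23 tested adaptors and kinases, 4 rose and 4 fell in pMT-10 against BL/6 CMPs (of all genes 14.3% rose and 13.7% fell). The IKK family moved both ways: the kinases Ikbkb (1.17 ± 0.21, adjusted p = 0.00531) and Ikbke (1.22 ± 0.23) rose, Chuk (IKK-alpha) fell (-1.82 ± 0.54, adjusted p = 0.0347), and Tbk1 (-0.29 ± 0.27) and the regulatory subunit Ikbkg (0.66 ± 0.23, adjusted p = 0.055) did not pass. Tab2 (-1.33 ± 0.19, adjusted p = 0.00248) and Tab3 (-0.77 ± 0.21), which join Traf6 to the kinase TAK1, fell. In LSK CD150+CD48+ cells against pMT-10 CMPs 2 rose and 2 fell (of all genes 5.92% rose and 5.92% fell). Chuk (3.68 ± 0.54) and Ticam1 (0.99 ± 0.27) were higher. Pik3ap1, which links TLRs to PI3 kinase (-1.68 ± 0.39), and Ticam2, the bridging adaptor of Ticam1 (-2.12 ± 0.31), were lower. In HSC against LSK CD150+CD48+ cells the 4 with the smallest p were Chuk (-5.27 ± 0.87), Pik3ap1 (2.60 ± 0.44), Ticam2 (1.92 ± 0.36) and the kinase Map3k8 (3.99 ± 0.87). Tirap, which brings Myd88 to Tlr2 and Tlr4, fell in HSC in all 3 comparisons (2.38 CPM against 8.16 in LSK CD150+CD48+ cells, 9.23 in pMT-10 CMPs and 7.03 in BL/6 CMPs; adjusted p = 0.0349, 0.02 and 0.049), opposite in direction to Tlr4. Of the 8 tested transcription factors Irf7, which acts downstream of Tlr7 and Tlr9, was the one that rose in pMT-10 CMPs (105 against 34.9 CPM, 1.59 ± 0.24), and Fos and Nfkb2 rose in HSC against BL/6 CMPs (1.38 ± 0.36 and 0.91 ± 0.26).

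Negative regulators moved both ways. Of 15 tested, 2 rose and 3 fell in pMT-10 against BL/6 CMPs (of all genes 14.3% rose and 13.7% fell). Sigirr, an inhibitory receptor of the family (1.43 ± 0.25), rose with Tnip3 (1.30 ± 0.34). Dok1 (-2.21 ± 0.39), Inpp5d, the phosphatase SHIP-1 (-1.01 ± 0.20), and the kinase Lyn (-1.67 ± 0.43) fell. Tnip3, which binds the NF-kB inhibitor A20, was at 42.1 CPM in HSC, 9.81 and 8.85 in the LSK CD150+CD48+ pair, 3.75 and 4.63 in pMT-10 CMPs, and 1.94 and 1.45 in BL/6 CMPs. No 2 groups overlapped, and all 5 comparisons were called. Of all genes 11.8% to 28.0% were called in these comparisons, and 27.8% to 45.7% did not overlap in a given direction. Tnip3 was picked after its values were seen. Irak3 (IRAK-M), which blocks IRAK release from Myd88, was at 81.0 CPM in HSC, 34.4 and 32.5 in the LSK CD150+CD48+ pair, 32.0 and 39.8 in pMT-10 CMPs, and 51.5 and 53.3 in BL/6 CMPs. It rose in HSC against LSK CD150+CD48+ cells (1.28 ± 0.24) and pMT-10 CMPs (1.17 ± 0.24), and was 0.63 ± 0.24 against BL/6 CMPs (adjusted p = 0.0951).

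**Figure D5:**
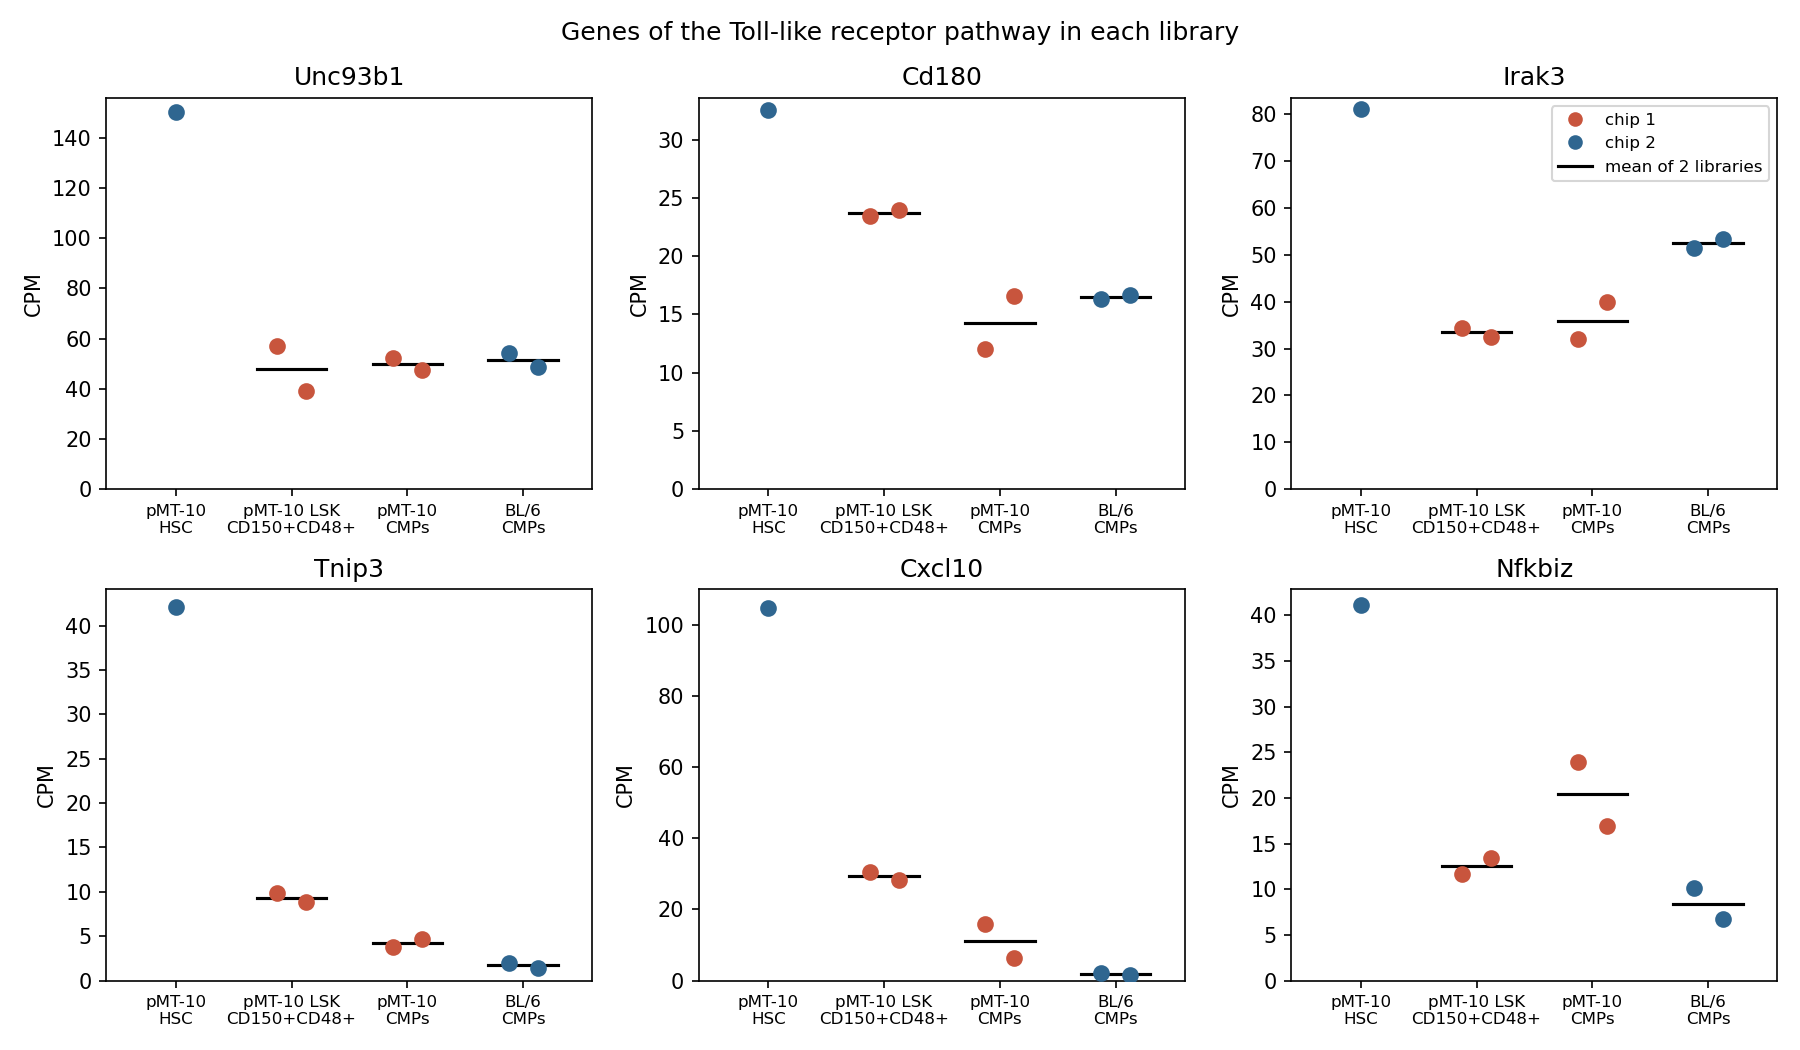
CPM per library of 6 pathway genes picked after their values were seen (linear axes from 0; points are libraries coloured by chip, black bars are means of 2 libraries). The HSC library is the highest in each panel, from 32.5 CPM for Cd180 to 150 CPM for Unc93b1. Irak3 in pMT-10 CMPs (32.0 and 39.8 CPM) lies below BL/6 CMPs (51.5 and 53.3 CPM), as for 33.7% of all genes, and was not called there.

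Of 5 tested receptors outside the TLRs that use Myd88, 1 fell and 0 rose in pMT-10 against BL/6 CMPs (of all genes 13.7% fell and 14.3% rose). Il1r1, the IL-1 receptor, was lower in pMT-10 than in BL/6 CMPs (2.99 against 9.66 CPM, -1.69 ± 0.36, adjusted p = 0.0101), opposite in direction to Myd88, and at 9.26 CPM in HSC. Il1rl1, the IL-33 receptor, was at 4.10 CPM in HSC, 91.4 and 109 in the LSK CD150+CD48+ pair, 61.2 and 92.9 in pMT-10 CMPs, and 99.9 and 97.5 in BL/6 CMPs, and fell in HSC in each comparison (-4.61, -4.23 and -4.58 against the 3 groups in that order). Of 12 tested genes that TLR signals induce, 5 rose and 0 fell in pMT-10 against BL/6 CMPs (of all genes 14.3% rose and 13.7% fell), among them the chemokine Cxcl10 (2.65 ± 0.44, adjusted p = 0.00396), Icam1 (1.69 ± 0.33), the NF-kB cofactor Nfkbiz (1.28 ± 0.30) and Il12a (0.82 ± 0.25). Cxcl10 is also induced by interferons. In HSC against BL/6 CMPs 6 rose and 0 fell (of all genes 11.8% and 8.50%), with Cxcl10 at 105 against 1.78 CPM (5.87 ± 0.48), Il12a at 75.5 against 9.55 CPM (2.98 ± 0.28), Il1b (3.17 ± 0.47) and Nfkbiz (2.29 ± 0.35). Only 12 of the 26 measured target genes passed the filter, and a gene such as Cd86 (59 counts in HSC, at most 9 in any other library) passed through the library where it is high, so these counts support nothing about the list. Tnf, Il6 and Ifnb1 did not pass the filter, and Ifnb1 and Nos2 had 0 counts in every library.

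Outside the 10 members, Tlr12 was the one other receptor tested (of Tlr11, Tlr12 and Tlr13). It was at 1.72 CPM in HSC, 0.584 and 0.144 in the LSK CD150+CD48+ pair, 3.09 and 2.66 in pMT-10 CMPs, and 1.38 and 1.62 in BL/6 CMPs, and fell in LSK CD150+CD48+ cells against pMT-10 CMPs (-3.08 ± 0.74, adjusted p = 0.0294). Over the 7 libraries the genes most like Myd88 by Pearson correlation of log2 CPM were Sh3gl1 (r = 0.990), Smpd2 (0.985) and Inppl1 (0.983), and those most like Tlr4 were Abcg3 (0.997), Bhlhe40 (0.992) and Dennd2d (0.990). With 7 libraries in 4 groups such values are common (152 genes had r over 0.9 with Myd88 and 215 with Tlr4) and describe the order of the libraries alone.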

How the data were processed

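Sorted bone marrow cells were sequenced with the Ion AmpliSeq Transcriptome mouse kit, per the labels' protocols. The authors deposited raw read counts per amplicon, 1 amplicon per gene, in 1 table per chip; the submitters' processing notes name mm10, and no source used here names the aligner or counter. Columns were matched to samples by table and barcode. The deposited counts went into edgeR 4.0.16 (R 4.3.3): filterByExpr (minimum count 10) kept 11429 genes, libraries were scaled by TMM, and all 7 entered 1 fit of 4 group means (3 residual degrees of freedom). Contrasts were tested, two-sided, by the robust quasi-likelihood F-test with p adjusted by Benjamini-Hochberg across the whole table; genes below 0.05 count as called, and adjusted p-values in the text are edgeR's unless another tool is named. Standard errors come from the same fit. The scripts were tested on simulated counts. Reads carry no molecular identifiers, so counting intervals (95%) and floors cover counting error only. Chip could not be fitted as a term, since each group lies on 1 chip. Alternatives were other scalings, DESeq2 1.42.0, other filters, fewer groups, a replicate block and each replicate left out.

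The members, lists, comparisons and motifs were chosen with earlier results of these data known. Named genes are all 10 members and, from each list and comparison, genes among the 4 called ones with the smallest p, not all of which are printed; Tnip3 and the IKK genes Chuk, Tbk1 and Ikbkg in CMPs, Tirap in HSC against LSK CD150+CD48+ cells and BL/6 CMPs, Cd14, Ly96, Cd86, Irak3 against BL/6 CMPs and genes at or near 0 were added after their values were seen. Gene positions are from GENCODE M21 and promoter windows from RefSeq (GRCm38.p6, the same assembly as mm10).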

Additional observations from a re-analysis of the deposited data

How the results depend on the processing

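Over up to 13 alternatives per comparison, 207 of 231 log2 fold changes of the tested members kept their sign and their side of the threshold, 10 lost a call, 11 gained one and 3 turned sign; Tlr7 between HSC and LSK CD150+CD48+ cells was not followed, since both were at the floor. The sign turned when a pMT-10 CMP library was left out: Tlr4 in LSK CD150+CD48+ cells against pMT-10 CMPs (-0.15 without replicate 1), and Tlr2 (-0.16) and Tlr4 (-0.077) in pMT-10 against BL/6 CMPs (without replicate 2). Over the libraries left out, Tlr2 ran from -0.16 to 1.46 and Tlr4 from -0.077 to 0.74 in pMT-10 against BL/6 CMPs, and Tlr4 from -0.15 to 0.67 in LSK CD150+CD48+ cells against pMT-10 CMPs. Leaving out each replicate in turn, the members called ran from 0 to 1 for LSK CD150+CD48+ cells against pMT-10 CMPs, from 0 to 1 for pMT-10 against BL/6 CMPs, from 0 to 2 in HSC against LSK CD150+CD48+ cells, from 1 to 3 in HSC against pMT-10 CMPs and from 0 to 4 in HSC against BL/6 CMPs. The lone library of a group is then assumed to vary like the others, and the calls over all genes moved as well, for pMT-10 against BL/6 CMPs from 3204 to 582 and 764 without a BL/6 replicate and to 5268 and 4550 without a pMT-10 one, and for LSK CD150+CD48+ cells against pMT-10 CMPs from 1354 to 44 and 96 without an LSK CD150+CD48+ replicate. With only the groups compared, 0 members were called in HSC against pMT-10 CMPs and 4 in HSC against BL/6 CMPs; the cause was not tested. The genes called over the whole table were then 595 (LSK CD150+CD48+ cells against pMT-10 CMPs), 3987, 1042 and 6127 (HSC against LSK CD150+CD48+ cells, pMT-10 CMPs and BL/6 CMPs), against 1354, 2145, 2912 and 2320, and without a filter the first was 2237. With the replicate number as a block the members called stayed at 1, 0, 2, 1 and 2 over the 5 comparisons; the numbers name libraries and do not pair them, since deviations of same-numbered libraries had correlations of -0.076 to -0.019. Without a filter Tlr5 also passed in HSC against BL/6 CMPs (adjusted p = 0.0423), and of the receptors Tlr2 and Tlr7 dropped out at a minimum count of 50. Depth limits 6 receptors to counts at or near the floor, and their absence is not shown.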
